A study of Mus musculus with 4 samples.

Results

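Cytosolic heat shock chaperone genes were followed across the cell types of the mouse testis. They are Hspa1a, Hspa1b, Hspa1l, Hspa2 and Hspa8 of the HSP70 family, Hspa4, Hspa4l and Hsph1 of the HSP110 family, Hsp90aa1, and the small heat shock protein gene Hspb9. They were taken by symbol from a list of chaperones, which was drawn up with earlier results of these data known, and they make up 10 of the 55450 genes in the files. The cells came from dissociated testes of mice (Mus musculus) on a high-fat diet (HFD) or a normal diet (ND), 2 libraries each, and are called HFD 1, HFD 2, ND 1 and ND 2. Strain, genotype, age, length of feeding and the number of mice behind a library are not given in the labels. All testes were digested with collagenase IV, dispase II and DNase I for 30 min at 37 °C before droplet capture. As nothing states that the libraries came from separate animals, the p-values measure only the spread between these libraries, which may be technical.

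HSP70 proteins bind unfolded stretches of other proteins and release them through cycles of ATP hydrolysis. J proteins deliver the substrates, HSP110 proteins exchange the nucleotide, and HSP90 takes over part of the clients for their last folding steps. Hspa8 codes for the constitutive HSP70 of most cells, whereas Hspa1a and Hspa1b are the stress-inducible pair that heat shock factor 1 switches on through repeats of the unit GAA in their promoters. Male germ cells also have HSP70 forms of their own, Hspa2 from meiosis onwards and Hspa1l in spermatids, and mouse spermatogenesis fails without Hspa2.

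Hspa1b, Hspa1a and Hspa1l lie next to each other on chromosome 17 of GRCm38. Hspa1b occupies chr17:34956436-34959238 and Hspa1a chr17:34969190-34972156, both on the minus strand and 9951 bases apart. Hspa1l occupies chr17:34972703-34979285 on the plus strand, so that 546 bases separate its start from that of Hspa1a. Gm20481 overlaps Hspa1a and Gm10501 overlaps Hspa1l on the other strand, and whether the counting used strand is not given in the sources used here. The transcripts of Hspa1a and Hspa1b were identical at 86.8% of aligned bases but at 55.4% over their last 300 bases, the end that 3′ libraries read. Reads that match both copies could still have been split between them. The other members are at chr12:76404176-76406938 (Hspa2, plus), chr9:40800984-40810087 (Hspa8, plus), chr11:53259814-53300457 (Hspa4, minus), chr3:40744495-40796103 (Hspa4l, plus), chr5:149614287-149636376 (Hsph1, minus), chr12:110690605-110702728 (Hsp90aa1, minus) and chr11:100713850-100714575 (Hspb9, plus).

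The promoters of Hspa1a, Hspa1b and Hsph1 are shown because these are the members called lower in HFD macrophage-like cells, described further on. Hsph1 had enough counts for that test in the ND libraries alone, and its call is no support. Up to 250 bases before each RefSeq start site are given 5′ to 3′ on the gene's strand, from RefSeq on GRCm38.p6. The Hsph1 stretch ends at the gene's edge in GENCODE, which lies 40 bases before the RefSeq start, and has 210 bases. Capitals mark the inverted pairs of the unit, searched as GAANNTTC and TTCNNGAA, each of which reads the same on both strands.
Hspa1a, chr17:34972157-34972406, minus strand: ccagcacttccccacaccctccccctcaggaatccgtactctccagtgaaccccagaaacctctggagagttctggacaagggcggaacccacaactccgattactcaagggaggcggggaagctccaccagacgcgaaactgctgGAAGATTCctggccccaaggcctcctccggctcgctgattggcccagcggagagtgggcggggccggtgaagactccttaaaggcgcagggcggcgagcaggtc
Hspa1b, chr17:34959239-34959488, minus strand: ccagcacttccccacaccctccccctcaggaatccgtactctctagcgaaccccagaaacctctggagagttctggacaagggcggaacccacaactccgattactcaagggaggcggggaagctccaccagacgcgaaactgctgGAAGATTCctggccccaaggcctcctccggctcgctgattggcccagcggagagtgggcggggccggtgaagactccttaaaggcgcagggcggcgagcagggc
Hsph1, chr5:149636377-149636586, minus strand: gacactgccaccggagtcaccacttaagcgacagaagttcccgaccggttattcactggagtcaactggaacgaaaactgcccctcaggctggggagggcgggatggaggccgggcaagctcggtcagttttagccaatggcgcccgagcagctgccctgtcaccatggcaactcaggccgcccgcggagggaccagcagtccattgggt

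The Hspa1a and Hspa1b stretches differed at 3 of 250 bases, and both hold the pair GAAGATTC 104 bases before the start. The printed stretch of Hsph1 holds no pair. Inside the gene as GENCODE gives it, the RefSeq window of Hsph1 holds the pair TTCTCGAA at chr5:149636362-149636369 and the triple repeat TTCTGGAAAGTTC at chr5:149636288-149636300. RefSeq has 2 start sites for Hsph1, and that pair lies 33 bases before one and 54 before the other. RefSeq's table of 300-base promoter windows, which reach past the start site, had entries for 8 of the 10 members. A pair was found in 15.1% of its 32851 windows and a triple, GAANNTTCNNGAA or TTCNNGAANNTTC, in 0.603%. The windows of Hspa1l, Hspa2, Hspa4, Hspa4l and Hspb9 held neither. The Hspa4l window, chr3:40745363-40745662, lies wholly inside the gene as GENCODE gives it, so nothing before that gene's edge was searched. Most of the Hspa2 window, chr12:76404120-76404419, also lies inside its gene. A match describes these letters and is no evidence of binding.

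Each library held 13561 to 15290 cell barcodes and 143748262 to 154221188 UMIs, which are counts of tagged RNA molecules. After filtering and removal of doublets, 13155 to 14503 cells per library remained, and 42 to 65 barcode sequences were shared between any pair of libraries. Clusters were named from marker genes into 9 germ-cell and 5 somatic classes with at least 30 cells in every library. Where a cluster lay between adjacent stages it carries both names, such as early-to-pachytene spermatocyte-like. Clusters left unnamed held 34.3% and 30.5% of the HFD cells and 27.6% and 27.6% of the ND cells. Every list of marker genes fixed for a testis cell type had UMIs in the whole testis.

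Levels are given as CPM, counts of a gene's UMIs scaled to the same total in every class and library, as mean ± SD over the 4 libraries. They are compared between classes and not between genes. A level is a share of a class's UMIs and not a number of UMIs per cell. Median UMIs per cell over the libraries were 24201 to 29533 in pachytene spermatocyte-like cells. They were 13182 to 16116 in late round-to-elongating and 3979.5 to 5161 in elongating spermatid-like cells. A class can therefore be higher by level and lower by UMIs per cell. Neighbouring classes are said to be apart where the ranges of the 4 libraries did not overlap. No test was run on these levels. The heat map of mean levels gives all 10 genes in all 14 classes.

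**Figure D1:**
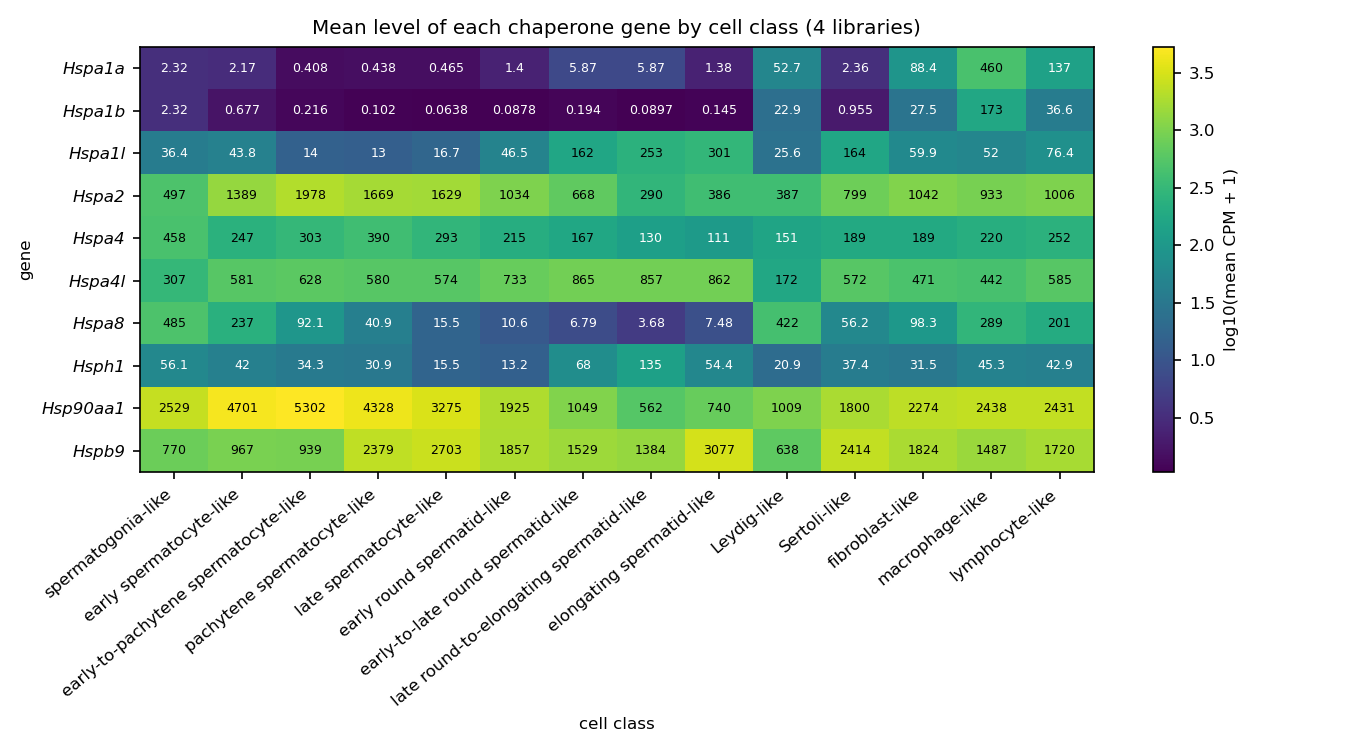
Mean CPM over 4 libraries (number in each cell, colour on a log10(CPM + 1) scale) of the 10 chaperone genes (rows) in 14 marker-named cell classes (columns). Hspa1a and Hspa1b stand out in somatic classes, with 460 and 173 CPM in macrophage-like cells, and the other genes peak in germ-cell classes.

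The levels of the inducible pair were highest in 4 somatic classes, and Sertoli-like cells did not share them. Hspa1a reached 460 ± 290 CPM in macrophage-like cells, 137 ± 70.5 in lymphocyte-like, 88.4 ± 62.5 in fibroblast-like and 52.7 ± 19.7 in Leydig-like cells. The ranges of these classes overlapped from each class to the next, and the Leydig-like range lay apart from every germ-cell class. Among germ cells the level was 5.87 ± 1.33 in early-to-late round spermatid-like cells and 5.87 ± 1.20 in late round-to-elongating ones. It was 0.408 ± 0.142 in early-to-pachytene spermatocyte-like cells, the lowest class. Sertoli-like cells had 2.36 ± 0.595 CPM, below both of these spermatid classes.

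Hspa1b followed the same order at the top, with 173 ± 92.0 CPM in macrophage-like, 36.6 ± 23.9 in lymphocyte-like, 27.5 ± 13.7 in fibroblast-like and 22.9 ± 10.4 in Leydig-like cells. The macrophage-like range lay apart from the next class. Every germ-cell and Sertoli-like mean was at or below 2.32 CPM. Although macrophage-like cells were 0.657% of HFD and 0.779% of ND cells, they gave 23.7% and 18.3% of the Hspa1a UMIs in HFD 1 and HFD 2 and 34.1% and 30.4% in ND 1 and ND 2. For Hspa1b they gave 40.9% in HFD and 39.8% in ND, with the libraries of each diet pooled. Leydig-like cells, 1.97% and 2.92% of the cells, added 17.6% and 21.8% of the pooled Hspa1a UMIs. Spermatid-like cells had low levels but also held many of the Hspa1a UMIs. Early round ones gave 9.76% in HFD and 9.21% in ND, early-to-late round ones 12.5% and 8.51%, and late round-to-elongating ones 12.01% and 7.67%.

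As a share of the class's UMIs, Hspa1l, whose product is the spermatid HSP70, was higher in each later spermatid class. Its level was 13.0 ± 0.576 CPM in pachytene spermatocyte-like cells, 46.5 ± 4.66 in early round, 162 ± 9.39 in early-to-late round, 253 ± 8.13 in late round-to-elongating and 301 ± 7.61 in elongating spermatid-like cells. Each of these steps was apart. Within the elongating class, clusters led by Prm1 or Tnp2 had means of 291 to 411 CPM. The cluster led by Car2 and Tssk6 had 42.4 CPM and the cluster with Smcp and Oaz3 among its leading genes 25.4 CPM. Sertoli-like cells had 164 ± 15.4 CPM of Hspa1l, beside 73448 to 83808 CPM of the summed 11 elongating spermatid markers. The part of such germ-cell RNA in the somatic levels was not tested.

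Hspa2, the meiotic HSP70, was highest in spermatocyte-like cells. It stood at 497 ± 45.7 CPM in spermatogonia-like and 1389 ± 43.4 in early spermatocyte-like cells, and peaked at 1978 ± 29.4 in early-to-pachytene spermatocyte-like cells. It was at 1669 ± 22.0 and 1629 ± 28.9 in pachytene and late spermatocyte-like cells, which overlapped. It was lowest in late round-to-elongating spermatid-like cells, at 290 ± 12.7. Elongating spermatid-like cells were higher and apart from these, at 386 ± 41.5. Fibroblast-, lymphocyte- and macrophage-like cells held 1042 ± 90.7, 1006 ± 116 and 933 ± 28.1 CPM. In the same order of classes the 12 pachytene markers summed to 8559 to 10156, 9214 to 11016 and 7876 to 9281 CPM, against 11182 to 12179 in the whole testis. The part of germ-cell RNA in these somatic levels was not tested.

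Hspa8, the constitutive form, was highest in spermatogonia-like and Leydig-like cells and lower at each step through meiosis. It had 485 ± 99.7 CPM in spermatogonia-like and 422 ± 6.12 in Leydig-like cells, which overlapped, and 289 ± 66.0 in macrophage-like cells. The other somatic classes were lower, with 201 ± 64.5 in lymphocyte-like, 98.3 ± 19.7 in fibroblast-like and 56.2 ± 7.38 in Sertoli-like cells. Along the germ line it stood at 237 ± 20.3, 92.1 ± 5.35, 40.9 ± 2.50, 15.5 ± 1.12 and 10.6 ± 0.979 CPM from early spermatocyte-like to early round spermatid-like cells. The lowest class was late round-to-elongating spermatid-like, at 3.68 ± 0.515, so that the top mean was 132 times the bottom mean. By number of UMIs, early-to-pachytene and pachytene spermatocyte-like cells gave 25.0% and 24.5% of Hspa8 in HFD and 24.01% and 17.6% in ND. Leydig-like cells gave 14.2% in HFD and 19.4% in ND, and spermatogonia-like cells 2.78% and 3.25%.

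The HSP110 members differed among themselves. Hspa4 was highest in spermatogonia-like cells (458 ± 39.6 CPM), had a second maximum in pachytene spermatocyte-like cells (390 ± 9.87) and was lowest in elongating spermatid-like cells (111 ± 5.64). Hspa4l, its testis-enriched paralog, was at 307 ± 7.76 CPM in spermatogonia-like cells, 574 ± 6.98 in late spermatocyte-like and 733 ± 3.60 in early round spermatid-like cells. By class it then stayed level, at 865 ± 5.51 and 857 ± 8.95 in the next classes and between 857 and 867 in the elongating class. Their ranges overlapped. Within the elongating class, with the libraries pooled, the cluster with Smcp and Oaz3 among its leading genes was lowest, at 480 CPM. The cluster led by Car2 and Tssk6 was highest, at 907. Leydig-like cells had the lowest Hspa4l level, 172 ± 16.9.

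Hsph1, the inducible HSP110, made a narrow peak in late round-to-elongating spermatid-like cells. Before it, the level went from 56.1 ± 7.65 CPM in spermatogonia-like to 13.2 ± 0.397 in early round spermatid-like cells, its lowest class. It was 68.0 ± 2.42 in early-to-late round, 135 ± 7.31 in late round-to-elongating and 54.4 ± 2.10 in elongating spermatid-like cells. The peak was apart from all other classes and 10.2 times the lowest.

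Hsp90aa1, the HSP90 alpha gene, had its maximum in the same class as Hspa2. It was at 2529 ± 135 CPM in spermatogonia-like, 4701 ± 208 in early spermatocyte-like and 5302 ± 111 in early-to-pachytene spermatocyte-like cells. Later it was 4328 ± 127 in pachytene and 3275 ± 77.3 in late spermatocyte-like, 1925 ± 73.6 in early round and 562 ± 30.0 in late round-to-elongating spermatid-like cells. That was its lowest class, and elongating spermatid-like cells were higher and apart from it, at 740 ± 109.

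Hspb9, a testis-enriched small heat shock protein, had a pair of maxima. It was at 939 ± 29.2 CPM in early-to-pachytene, 2379 ± 50.9 in pachytene and 2703 ± 63.4 in late spermatocyte-like cells. It was lower in round spermatid-like cells, at 1384 ± 31.1 in the late round-to-elongating class, and 3077 ± 132 in elongating spermatid-like cells. Within that class the lowest cluster, led by Tnp2, had 1701 ± 48.8 CPM, and the cluster led by Car2 and Tssk6 had 5523 ± 288. The highest, with Smcp and Oaz3 among its leading genes, had 11880.1 ± 1363 CPM.

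**Figure D2:**
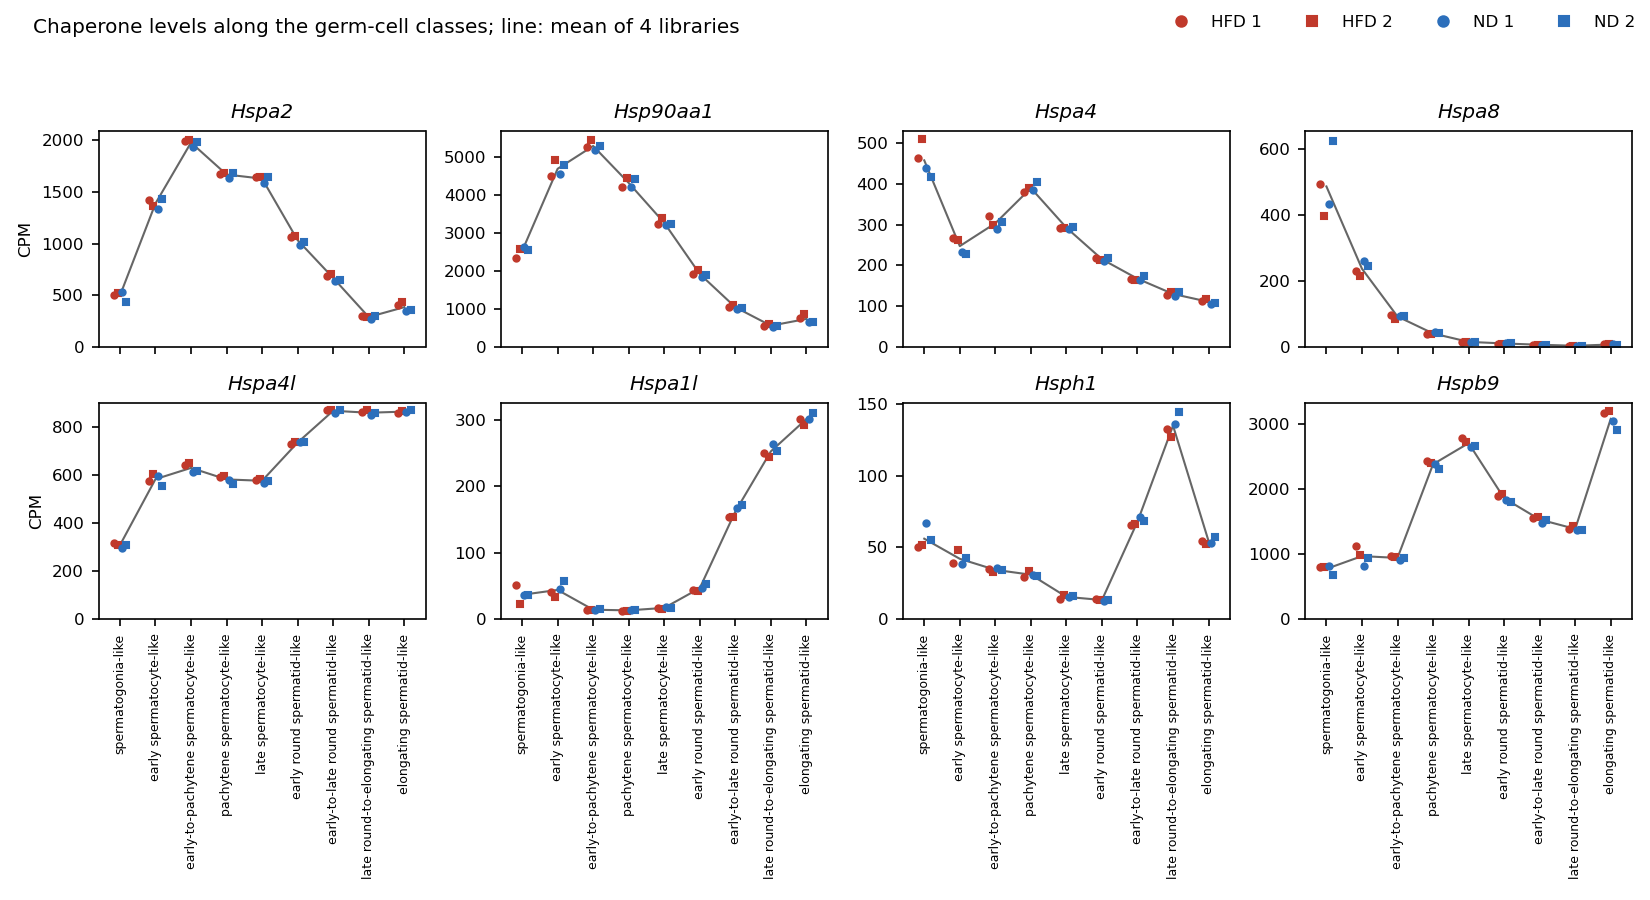
CPM of 8 chaperone genes (y axis, from 0) in the 9 germ-cell classes in order of development (x axis), with a point per library and a line through the mean of 4 libraries. Hspa2 and Hsp90aa1 peak in early-to-pachytene spermatocyte-like cells at 1978 and 5302 CPM, Hsph1 in late round-to-elongating spermatid-like cells at 135, and Hspa1l is highest at 301 in elongating spermatid-like cells.

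The genes whose profile over the 14 classes was most like that of a member were found by Pearson's r of log2(mean CPM + 1) among 12573 genes. The classes share libraries and differ in depth, so these are descriptions. For Hspa1a they were Ifit3 (r = 0.969), Isg15 and Fosb, and for Hspa1b Gbp2 (0.996), Rtp4 and H2-T23. For Hspa1l they were H2al2a (0.995), 1700031M16Rik and Lelp1, for Hspa2 Cox7b2 (0.987), Sephs2 and Kctd19, and for Hspa8 Hltf (0.988), Rpl6 and Usf2. Hspa4 was nearest to Eif2b4 (0.976), Eif3d and Eif1ad, Hspa4l to Cdkl3 (0.946), Lrrfip2 and Ttll13, and Hsph1 to Ltn1 (0.928), Trim45 and Gxylt1. Hsp90aa1 was nearest to Ttc21b (0.992), Gm12346 and Strn4, and Hspb9 to Dusp15 (0.969), Cdk19os and Pgp.

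The diets were compared first in the whole testis. Summed over all kept cells, the inducible pair was lower in HFD by more than 2-fold, and the other members that passed the test differed by small amounts. Hspa1a had 2.32 and 2.41 CPM in HFD 1 and HFD 2 against 5.23 and 5.49 in ND 1 and ND 2 (338 and 328 against 694 and 740 UMIs). Both HFD libraries lay below both ND libraries, with HFD over ND at -1.17 on the log2 scale (SE 0.084). The share of all genes whose libraries lay apart in this way is not given here. The adjusted p was 6.47e-07 by the quasi-likelihood test of edgeR, with adjustment after Benjamini and Hochberg over all genes tested, as for every adjusted p given here. Hspa1b had 0.563 and 0.603 against 1.47 and 1.46 CPM, or -1.32 in log2 (SE 0.138; edgeR adjusted p 1.72e-05).

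Hspa1l and Hspa8 were also lower in HFD. Hspa1l was at 71.5 and 65.9 CPM in HFD and 82.1 and 81.5 in ND, which is -0.24 on the log2 scale (SE 0.046; edgeR adjusted p 0.000993). Hspa8 was at 33.7 and 33.4 against 37.0 and 37.5 (log2 ratio -0.14, SE 0.043; edgeR adjusted p 0.0172). The meiotic genes and Hspb9 were higher. Hspa2 had 1262 and 1289 CPM in HFD and 1125 and 1183 in ND (0.15, SE 0.038; edgeR adjusted p 0.00643), and Hsp90aa1 2756 and 2982 against 2511 and 2626 (0.17, SE 0.041; 0.00563). The log2 ratio was 0.12 (SE 0.035; edgeR adjusted p 0.0175) for Hspb9 and 0.11 (SE 0.039; 0.0471) for Hspa4. Hspa4l (-0.01, edgeR adjusted p 0.911) and Hsph1 (-0.07, 0.188) did not pass.

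So 4 members were higher and 4 lower of the 10 tested, where edgeR called 34.5% of all 25475 genes tested, 15.5% higher and 19% lower. The median log2 ratio was -0.04 over the members and -0.02 over all genes. In a sum over the tissue, fewer cells of a type and less RNA per cell cannot be told apart. The 12 pachytene markers summed to 12078 and 12179 CPM in HFD against 11182 and 11226 in ND, and the 11 elongating spermatid markers to 29248 and 26789 against 33806 and 32203. The 7 Leydig markers summed to 199 and 193 against 362 and 305. The 12 macrophage markers summed to 344 and 335 against 417 and 416, but they do not measure macrophages in the whole testis, since they also summed to 936 to 983 CPM in elongating and 1045 to 1081 in late round-to-elongating spermatid-like cells. Macrophage-like cells were 0.677% and 0.639% of the HFD cells and 0.758% and 0.8% of the ND cells.

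Without macrophage-like and Leydig-like cells, an alternative added after these values were seen, Hspa1a was at -0.78 (SE 0.110; edgeR adjusted p 7.43e-05) and Hspa1b at -1.01 (SE 0.245; 0.00508). In that fit edgeR called 7477 of the 24972 genes tested. The log2 ratios of Hspa8 (-0.06, edgeR adjusted p 0.31) and Hspa4 (0.09, 0.102) then no longer passed. With every class weighted equally, only the inducible pair passed. For that fit and for those without 1 library, the share of all genes called is not given here. Leaving out HFD 1 left 5 of the 8 calls and leaving out HFD 2 left 3.

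**Figure D3:**
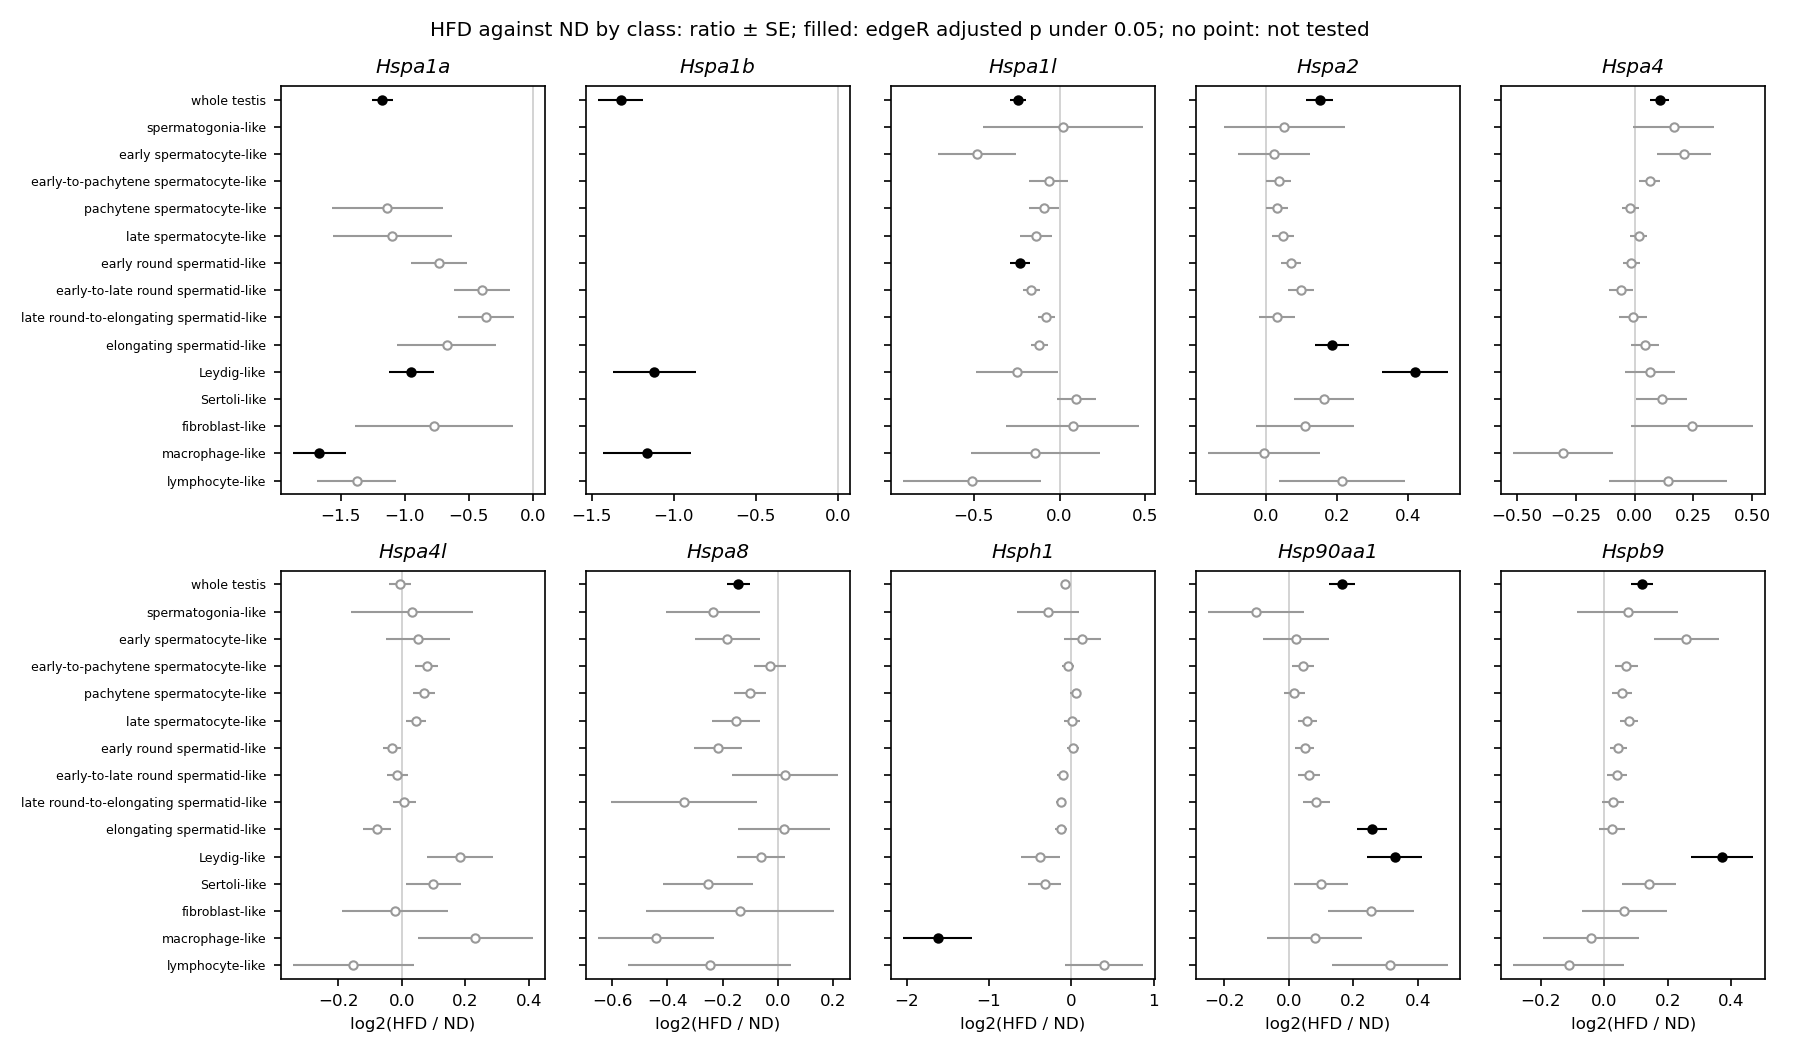
Log2 ratio of HFD to ND with its SE (x axis, a different scale in each panel) for the 10 chaperone genes in the whole testis and 14 cell classes (y axis), with filled points for an edgeR adjusted p under 0.05 and no point where the gene had too few counts. Hspa1a runs from -1.66 in macrophage-like to -0.36 in late round-to-elongating spermatid-like cells over the 10 classes where it was tested, and in pachytene and late spermatocyte-like cells it reached the count limit through the ND libraries alone.

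Within macrophage-like cells, 3 of the 10 members were lower in HFD and 0 higher, where edgeR called 1.26% of 5792 genes, 0.276% higher and 0.984% lower. Hspa1a was at 253 and 192 CPM in HFD against 810 and 584 in ND, from 80 and 60 against 237 and 225 UMIs. The lowest ND library was more than 2 times the highest HFD library, at -1.66 in log2 (SE 0.206; edgeR adjusted p 7.5e-06). Hspa1b was at 117 and 96.2 CPM against 301 and 177, or -1.16 in log2 (SE 0.266; edgeR adjusted p 0.0171). Hsph1 was at 19.0 and 25.6 against 71.8 and 64.9 CPM, from 6 and 8 against 21 and 25 UMIs, or -1.62 in log2 (SE 0.420; edgeR adjusted p 0.0482). Hsph1 reached the count limit of the test through the ND libraries alone, so that it had to differ to be tested at all, and its count among the 3 is no support. With no filter on low counts it was at -1.67 (edgeR adjusted p 0.0315). The other 7 members did not pass. Hsp90aa1 was at 2287 and 2779 CPM in HFD against 2202 and 2482 in ND (0.08; edgeR adjusted p 0.988). These cells also held 1487 ± 78.3 CPM of Hspb9, and the part of germ-cell RNA in the Hsp90aa1 level was not tested. Hspa8 was at 291 and 202 against 362 and 299 CPM (-0.44; edgeR adjusted p 0.619). The median over the members was -0.22 and over all genes 0.01.

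Leaving out HFD 2 or ND 1 ended all 3 calls, with Hspa1a at -1.48 (edgeR adjusted p 0.509) and -1.42 (0.328). The Hspa1a ratio ranged from -1.92 to -1.42 over all alternatives and the Hspa1b ratio from -1.56 to -0.75. DESeq2 and limma also ended the Hspa1b call. Hsph1, on few UMIs, lost its call under 9 of 12 alternatives, leaving out any 1 library among them. The 12 macrophage markers of these cells summed to 11887 and 11874 CPM in HFD and 16589 and 13578 in ND, and the 7 Leydig markers to 317 and 125 against 71.8 and 46.7. The part of these marker differences in the result was not tested.

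The share of macrophage-like cells with at least 1 Hspa1a UMI showed the same order. With each cell thinned to 1000 UMIs, which left out no cell, it was 19.1% (exact Clopper-Pearson 95% interval 11.5 to 28.8) in HFD 1 and 15.1% (8.30 to 24.5) in HFD 2. It was 50.9% (41.2 to 60.6) in ND 1 and 42.3% (33.0 to 52.1) in ND 2, so that the intervals of the diets did not overlap. Unthinned, the means were 30.9% and 61.1%, although the median depth was higher in HFD (3150 and 2618 UMIs) than in ND (2224 and 2422). A single macrophage-like cell held up to 14 Hspa1a UMIs in ND and up to 10 in HFD. Sertoli-like cells, which have a similar depth of 2401 to 3390 UMIs, had a thinned share of 0.155% ± 0.220 (SD, n = 2) in HFD and 0.388% ± 0.156 in ND. The intervals cover counting error only, and 2 libraries per diet cannot give an exact permutation p below 0.3333.

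For Hspa1b the thinned share of macrophage-like cells was 10.3% ± 1.87 in HFD and 21.7% ± 3.98 in ND (SD, n = 2), where Sertoli-like cells had 0.326% and 0 in HFD 1 and HFD 2 and 0 in both ND libraries. After thinning, a count of 0 in 322, 401 and 360 cells allows a share of up to 0.932%, 0.748% and 0.833%. These limits are approximate, and exact Clopper-Pearson intervals would reach higher. Unthinned, the Sertoli-like cells of HFD 2, ND 1 and ND 2 held 0, 2 and 4 Hspa1b UMIs. For Hsph1 the thinned share of macrophage-like cells was 2.29% ± 0.055 and 7.24% ± 0.046, where Sertoli-like cells had 2.72% ± 0.766 and 2.90% ± 0.221. The HFD share of Hsph1 lay below that of Sertoli-like cells and is not read as expression.

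**Figure D4:**
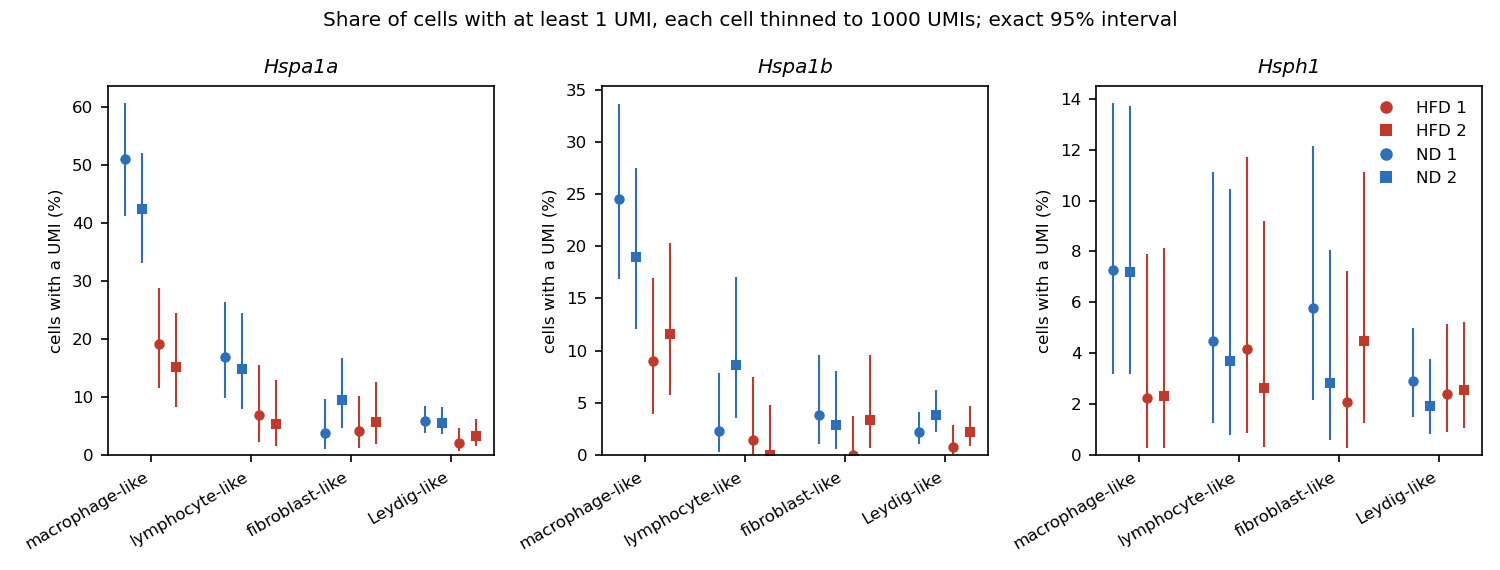
Percentage of cells with at least 1 UMI of Hspa1a, Hspa1b or Hsph1 (y axis, from 0) after thinning every cell to 1000 UMIs, per library, in 4 somatic classes (x axis), with exact 95% intervals. For Hspa1a in macrophage-like cells the ND libraries sit at 50.9% and 42.3% and the HFD libraries at 19.1% and 15.1%.

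In Leydig-like cells, the steroid-producing cells between the tubules, the inducible pair was lower and 3 genes that are high in germ cells were higher. That made 2 members lower and 3 higher of 10, where edgeR called 2.84% of 11914 genes, 1.27% higher and 1.57% lower. Hspa1a was at 29.4 and 44.0 CPM in HFD against 65.1 and 72.4 in ND (log2 ratio -0.95, SE 0.176; edgeR adjusted p 0.00316). Hspa1b was at 12.4 and 17.1 against 26.4 and 35.8 (-1.12, SE 0.251; edgeR adjusted p 0.0139). For both genes the libraries of the diets were apart. With 2 against 2 libraries that gives an exact permutation p of 0.3333, and the share of all genes apart is not given here. The thinned share with an Hspa1a UMI was 2.64% ± 0.923 in HFD and 5.67% ± 0.161 in ND (SD, n = 2).

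Hspa2 was at 477 and 417 CPM in HFD Leydig-like cells against 316 and 340 in ND (0.42, SE 0.093; edgeR adjusted p 0.0131). Hspb9 was at 805 and 647 against 513 and 588 (0.37, SE 0.098; 0.0405), and Hsp90aa1 at 1210 and 1057 against 880 and 889 (0.33, SE 0.086; 0.0396). The 12 pachytene markers in these cells summed to 4334 and 3648 CPM in HFD and 2921 and 3064 in ND, and the 7 Leydig markers to 15204 and 15604 against 20036 and 16802. The part of germ-cell RNA in the 3 higher genes was not tested. None of the 5 calls held without the filter on low counts or with finer clusters, and with doublets kept 1 did. The share of all genes called under these and the next alternatives is not given here. DESeq2, which gave the inducible pair no adjusted p, left 1, and a fit with the replicate number as a block left 2. Leaving out HFD 1, ND 1 and ND 2 left 1, 2 and 2 of the 5 calls.

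The change of Hspa1a, Hspa1b and Hsph1 in macrophage-like cells was not shown to differ from that in Leydig-like cells. In an interaction test chosen after the values were seen, the differences of the log2 ratios, macrophage-like less Leydig-like, were -0.74 (SE 0.271; edgeR adjusted p 0.394), -0.06 (SE 0.394; 0.998) and -1.28 (SE 0.4997; 0.446).

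**Figure D5:**
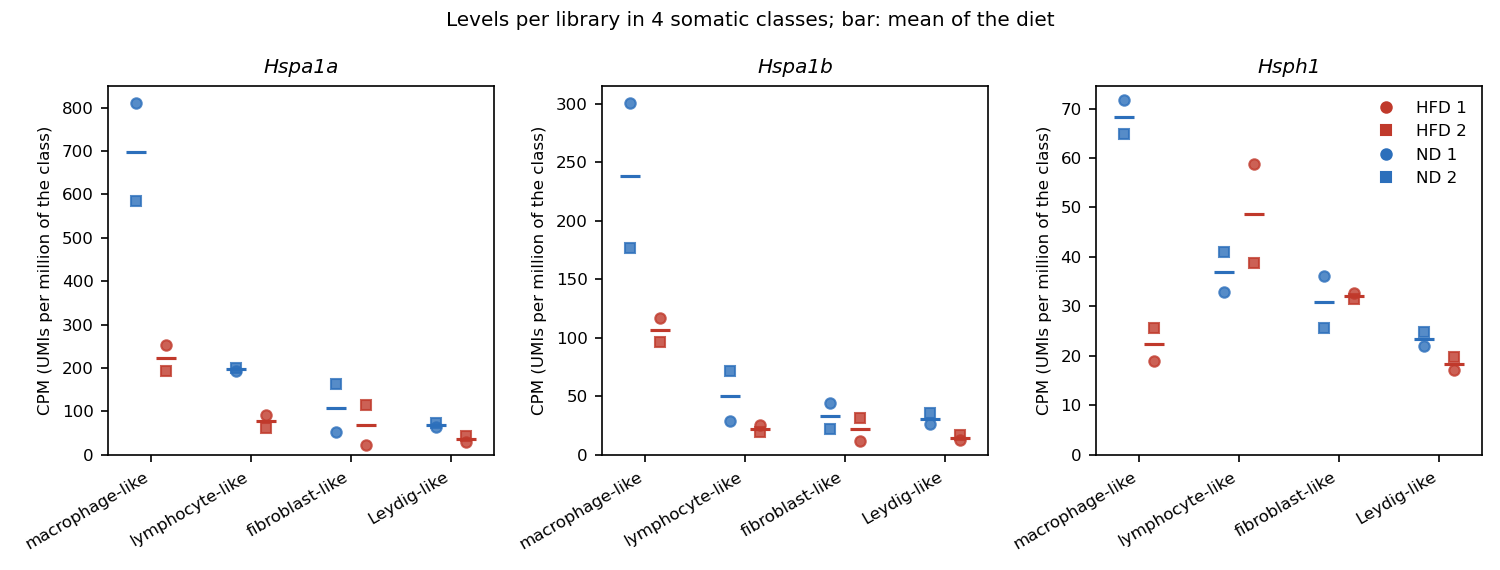
CPM of Hspa1a, Hspa1b and Hsph1 (y axis, from 0) per library in 4 somatic classes (x axis), with a bar at each diet's mean. In macrophage-like cells Hspa1a was at 253 and 192 in HFD and at 810 and 584 in ND, and the fibroblast-like libraries of the diets overlap.

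Lymphocyte-like cells gave Hspa1a levels of 91.7 and 62.1 CPM in HFD and 194 and 200 in ND, from 25 and 16 against 53 and 39 UMIs. The libraries were apart, which with 2 against 2 libraries gives an exact permutation p of 0.3333. The share of all genes apart is not given here. The log2 ratio of -1.37 (SE 0.308) had an edgeR adjusted p of 0.0869 and did not pass. The thinned share of cells was 6.10% ± 1.19 in HFD and 15.8% ± 1.44 in ND (SD, n = 2). Hspa1a also did not pass in fibroblast-like cells, whose 23.8 and 114 CPM in HFD overlapped the 52.2 and 163 in ND (-0.77, SE 0.616; edgeR adjusted p 0.969). There, 1 cell held 13 of the 51 UMIs of ND 2 and 1 cell 11 of the 29 UMIs of HFD 2.

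In germ cells, the members that passed within a class differed by at most 0.26 in log2, and Hspa1a, at low counts, had larger ratios that did not pass. Its level was 0.235 and 0.307 CPM in HFD against 0.625 and 0.587 in ND in pachytene spermatocyte-like cells, from 7 and 9 against 13 and 12 UMIs (-1.13, SE 0.434; edgeR adjusted p 0.203). In late spermatocyte-like cells it was 0.263 and 0.323 against 0.548 and 0.728 (-1.10, SE 0.463; edgeR adjusted p 0.179), and in early round spermatid-like cells 1.18 and 0.94 against 1.81 and 1.67 (-0.73, SE 0.217; 0.0702). The libraries of the diets were apart in all 3, but in both spermatocyte classes only the ND libraries reached the count limit of the test. The share of all genes apart is not given here. In early-to-late round spermatid-like cells Hspa1a was at 6.30 and 3.94 CPM in HFD against 6.31 and 6.94 in ND. It was at 4.71 and 5.61 against 5.60 and 7.56 in late round-to-elongating ones. There the diets overlapped only by 5.61 against 5.60, and they were apart after the scaling used for the test. In elongating ones it was at 1.31 and 0.849 against 1.23 and 2.11, which overlapped. In early spermatocyte-like cells, with too few counts to test, HFD 1 and HFD 2 held 0 and 5 Hspa1a UMIs and the ND libraries 3 and 2. Of the 9 members tested in elongating spermatid-like cells, 2 were higher in HFD and 0 lower, where edgeR called 10.6% of 13872 genes, 4.46% higher and 6.11% lower. Hsp90aa1 was at 769 and 883 CPM in HFD against 654 and 656 in ND (0.26, SE 0.047; edgeR adjusted p 0.0001), and Hspa2 at 409 and 432 against 347 and 354 (0.19, SE 0.048; 0.00626). Without HFD 2 neither passed. In the same cells the 12 late spermatocyte markers summed to 576 and 593 CPM in HFD and 473 and 474 in ND, and their part in the result was not tested. In early round spermatid-like cells 1 of 9 members passed, where edgeR called 4.29% of 18477 genes, 1.72% higher and 2.57% lower. It was Hspa1l, at 43.9 and 42.3 CPM in HFD and 46.8 and 52.9 in ND (-0.23, SE 0.059; edgeR adjusted p 0.0369). Leaving out HFD 2 or ND 2 ended the call, as did DESeq2, limma, no filter on low counts and doublets kept.

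In the other 10 classes edgeR called 0 of the 8 or 9 members tested. It called 0% of all genes in spermatogonia-, Sertoli- and fibroblast-like cells and 0.12% in lymphocyte-like cells. The share was 0.266% in early, 0.632% in early-to-pachytene, 1.94% in pachytene and 6.51% in late spermatocyte-like cells, 0.464% in early-to-late round and 0.0369% in late round-to-elongating spermatid-like cells. At an unadjusted p under 0.05 there were 0 members in spermatogonia-, Sertoli- and fibroblast-like cells and 1 or 2 in each of the other 7. The share of all genes at that unadjusted threshold is not given here. DESeq2 and limma called 0 members in all 10, and the share of all genes they called is not given here. Across the 14 classes, which share the libraries, the ratios of Hspa2 and Hsp90aa1 were above 0 in 13 and that of Hspb9 in 12. Hspa8 was below 0 in 12 and Hspa1l in 11, and Hspa1a and Hspa1b in the 10 and 2 classes tested. Hspa4 and Hspa4l were above 0 in 9 each, and Hsph1 was below 0 in 8 of 13. In pachytene and late spermatocyte-like cells Hspa1a reached the count limit through the ND libraries alone, as did Hsph1 in macrophage-like cells. Their ratios there had to be below 0 for a test to be run and are no support. The same count over all genes is not given here, and the part of germ-cell RNA shared by the classes was not tested. Hspa4, Hspa4l and Hspa8 passed in no class.

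The genes that work with the members were followed as 6 lists of 60 partners, namely co-chaperones of HSP70, HSP90 and its co-chaperones, further HSP70 relatives, small heat shock proteins, heat shock factors and the TRiC chaperonin. In the whole testis 16 of the 56 tested were higher in HFD and 6 lower, with a median log2 ratio of 0.06 against -0.02 over all genes. Over all genes 15.5% were higher and 19% lower. Among those higher were Hsf2bp, which binds heat shock factor 2, at 93.0 and 99.3 CPM in HFD against 80.0 and 80.6 in ND (0.27; edgeR adjusted p 0.000207), and the nucleotide exchange factor Bag3 (0.23; 0.000651). The HSP70-binding St13 was higher as well (0.21; 0.00138). Hsfy2, a heat shock factor-like gene of the germ line, was lower at 91.3 and 90.8 against 118 and 116 CPM (-0.35; 2.09e-05). The J protein gene Dnaja4 was lower at 150 and 144 against 188 and 182 CPM (-0.33; 4.37e-05).

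Within the classes, up to 5 partners were called in any class, given here beside the share of all genes called. In late spermatocyte-like cells 2 of 52 tested were higher and 2 lower, where 6.51% of all genes were called. In early round spermatid-like cells 0 of 53 were higher and 4 lower (4.29% of all genes), and in elongating ones 4 of 52 were higher and 1 lower (10.6%). In early spermatocyte-like cells 1 of 49 was higher (0.266%), in Leydig-like cells 2 of 54 were higher and 1 lower (2.84%), and in macrophage-like cells 1 of 38 was higher (1.26%). No partner passed in the other 8 classes. Dnaja4 was lower in early round (-0.13; edgeR adjusted p 0.0371) and elongating spermatid-like cells (-0.21; 0.00184). St13 was higher in late spermatocyte-like (0.16; edgeR adjusted p 0.0181) and elongating spermatid-like cells (0.28; 0.00152). In elongating spermatid-like cells the HSP90 co-chaperone gene Cdc37 (0.30; edgeR adjusted p 0.032) and Hsf5 (0.24; 0.0316) were higher too. The chaperonin subunit gene Cct6b was higher in early spermatocyte-like cells, at 242 and 215 CPM against 140.5 and 143 (0.70; edgeR adjusted p 0.00275), and Cct6a in macrophage-like cells, at 187 and 208 against 95.8 and 104 (0.95; 0.0423).

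Immediate early genes, a list of 12 genes that tissue dissociation can induce within minutes, were set beside the inducible pair. In macrophage-like cells 1 of the 12 was lower in HFD and 0 higher, with a median log2 ratio of -0.44 against 0.01 over all genes, of which 1.26% were called. The 1 was Atf3, at 127 and 154 CPM in HFD against 393 and 200 in ND (-1.08, SE 0.264; edgeR adjusted p 0.028). In the whole testis 0 of 12 were higher and 5 lower, where 34.5% of all genes were called and 19% were lower, with Jund among the 5 at 78.7 and 73.6 against 97.9 and 93.8 CPM (-0.32). In Leydig-like cells 6 of the 12 were higher and 0 lower, with a median of 0.38, where 2.84% of all genes were called. Fosb was at 85.9 and 78.8 CPM in HFD against 58.9 and 42.4 in ND (0.67; edgeR adjusted p 0.0182), Ier2 at 91.8 and 76.8 against 58.9 and 45.1 (0.67; 0.0162), and Ier3 at 139 and 129 against 98.5 and 71.1 (0.63; 0.0121). In lymphocyte-like cells edgeR called 0 of the 9 tested, with a median of -0.75 against -0.01 over all genes, of which 0.12% were called. At an unadjusted edgeR p under 0.05 there were 4 of the 9, and the share of all genes at that threshold is not given here. Leydig-like cells were the only one of the 14 classes with a median of this list above 0. The calls of immediate early genes and of partners were not followed under the alternatives, which were read for the members only. The part of the digestion in the chaperone levels was not tested.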

How the data were processed

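Droplet single-cell RNA sequencing (10x 3′ chemistry, per the labels' protocols) was deposited as 1 matrix of raw UMI counts per gene and barcode for each of the 4 libraries. The matrix headers name software version 3.0.2, and mm10 is the build per the submitters' processing notes. The aligner and the annotation are not given in the sources used here. All gene identifiers were found in GENCODE M21 (GRCm38), which gave the coordinates.

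Barcodes needed 200 genes and at most 20% mitochondrial UMIs, and doublets called by Scrublet in scanpy 1.11.5 were left out. Cells were clustered (2000 variable genes, 30 components, 15 neighbours, Leiden resolution 1) without the members, partners and immediate early genes among the variable genes. Clusters were named by marker scores. Clusters led by mitochondrial genes, or shallow and without markers of their own among the top 10 genes, stayed unnamed. Classes needed 30 cells in every library.

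UMI counts were summed per library and class and tested with edgeR 4.0.16 (filterByExpr, TMM, quasi-likelihood) in R 4.3.3, 1 fit per class, Benjamini-Hochberg adjusted over all genes of the fit, threshold 0.05. The tests were run on simulated data first. CPM are relative to all UMIs of the class. The SE is the ratio's size over the square root of F. DESeq2 1.42.0 and limma 3.58.1 (pseudocount 1) were alternatives, with others on filters, scaling, clustering, doublets, depth and left-out libraries.

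All 10 members are accounted for, those past the threshold with full statistics. Up to 3 list genes per direction and class, with at least 20 CPM, and up to 3 like genes per member were named. Cell numbers from 2 libraries per diet limit the precision of small classes. The members and lists were chosen with earlier results of these data known.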

Additional observations from a re-analysis of the deposited data

How the results depend on the processing

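Of the 19 differences between diets that passed for a member in the whole testis or a class, 2 passed under every alternative run, those of Hspa1a and Hspa1b in the whole testis, and 0 changed direction. The number of members called is given here where it moved by over 1.5 times. The share of all genes called under each of these alternatives is not given here, so a lower number may go with fewer calls over all genes. In the whole testis it went from 8 to 2 with classes weighted equally (limma), and to between 3 and 7 without 1 library. In early round spermatid-like cells it went from 1 to 0 under DESeq2, limma, no filter on low counts and doublets kept, to 2 with the replicate block, and to 0 to 2 without 1 library. In elongating spermatid-like cells it went from 2 to 1 with doublets kept and to 0 to 2 without 1 library. In Leydig-like cells it went from 5 to 1 under DESeq2, which gave the inducible pair no adjusted p, to 0 without a filter, 2 with the replicate block, 1 with doublets kept, 0 with Leiden resolution 2, and 1 to 5 without 1 library. In macrophage-like cells it went from 3 to 1 under DESeq2 and under limma, to 2 with DESeq2's size factors, with doublets kept and with Leiden resolution 2, and to 0 to 2 without 1 library. From 0 it went to 1 in late spermatocyte-like cells without a filter, and in lymphocyte-like cells with the replicate block and with doublets kept; without 1 library it was 0 to 1 in both and in early-to-late round spermatid-like cells. The cause of these moves was not tested. The replicate numbers came from the titles and nothing says that they mark a shared animal. Across genes, the log2 departure of HFD 1 from the HFD mean was correlated with that of ND 1 from the ND mean. This r was 0.165 in the whole testis, 0.214 in fibroblast-like cells and -0.09 to 0.07 in the other classes. It rests on 2 same-numbered pairs of libraries and is not a correlation between whole libraries. Levels moved beyond 1 SD for Hspa4 in spermatogonia-like cells with TMM scaling (511 CPM) and, with doublets kept, for Hspa4l in early-to-late round (857), Hsph1 in late round-to-elongating (106) and Hspb9 in elongating spermatid-like cells (3648). Thinned to 2000 UMIs, which left out 36 HFD and 77 ND macrophage-like cells, the shares in HFD and ND were 25.2% and 55.7% for Hspa1a, 15.1% and 33.4% for Hspa1b, and 3.58% and 13.9% for Hsph1. The planned test of a difference between classes had no case, since no member was higher in one class and lower in another by the test. Depth limits Hspa1a, Hspa1b and Hsph1, which could be tested in 10, 2 and 13 of the 14 classes.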
